A study of Mus musculus with 8 samples.

Results

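Migratory dendritic cells are described here as they appeared among the cells of mouse inguinal fat. They were found in the stromal vascular fraction (SVF), the cells left after fat is digested and the floating adipocytes are removed. Members were chosen by measured counts: a cell qualified when it held at least 1 unique molecular identifier (UMI, 1 captured RNA molecule) of Ccr7. It also had to hold at least 3 UMIs in sum of Fscn1, Ccl22, Il4i1 and Cacnb3, and none of Cd3d, Cd3e, Cd3g, Cd79a or Pdgfra. Of 36370 kept cells, 231 met this rule (0.635%). The cells came from 8 droplet libraries (10x Genomics), 4 from C57BL/6 mice fed ad libitum (Ad-Lib) and 4 from C57BL/6 mice given 2 meals a night (TAN). The study describes them as male C57BL/6J. The libraries carry the label numbers Ad-Lib 1, 3, 5 and 7 and TAN 2, 4, 6 and 8. No genotype or transgene is listed for either group. How old the animals were is unclear, as 8 weeks is labelled but the study speaks of older ones.

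Dendritic cells take up antigen in tissues and present it to T cells. On maturation they express the chemokine receptor Ccr7, which guides them along lymphatic vessels to the draining lymph node, and the actin-bundling protein Fscn1, which shapes their long processes. Mature cells also make chemokines for T cells, raise MHC class I and stop making new MHC class II. Conventional dendritic cells that have not matured fall into a Xcr1+ Clec9a+ type (cDC1) and a type marked here by Cd209a (cDC2). Both were used for comparison, though the cells gated by Cd209a also held RNA of plasmacytoid and macrophage genes, as given below.

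The 5 genes that chose the members were present at high levels in the chosen cells, which is a description and not a finding. Levels are given in CPM, the UMIs of a gene per 1000000 UMIs summed over the members of a library, as mean ± SD over the 4 libraries that held at least 10 members. Ccr7 (chromosome 11, 99144196 to 99155077, GRCm38) stood at 1432 ± 302 CPM. Fscn1 (chromosome 5, 142960343 to 142973185) stood at 2177 ± 289 CPM and had a UMI in 96.5% of members. Cacnb3, a calcium channel subunit, stood at 664 ± 136 CPM, Ccl22, a chemokine for Ccr4+ T cells, at 613 ± 139 CPM, and Il4i1, an amino acid oxidase, at 549 ± 118 CPM. The median member held 10 Ccr7 UMIs and 27 UMIs of the other 4 genes. Just inside the threshold, 8 members had a sum of 3, and just outside it 8 cells had a sum of 2 with Ccr7 present. With the sum reached, 25 members held a single Ccr7 UMI, while 647 cells without Ccr7 were left out. A further 86 cells passed everything but the exclusion genes.

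Ccr7 alone did not mark these cells. It had a UMI in 43.4% of 2869 B gate cells and 45.0% of 4249 T gate cells, as naive lymphocytes also use this receptor. It had one in 0.247% of macrophage gate cells, at a median depth of 6122 UMIs against 8975 in members. The sum of 3 UMIs of the other genes was reached by 2.41% of B gate cells and 0.753% of T gate cells. Unsupervised clustering of all kept cells gave 33 clusters, and 1 of them held 224 of the 231 members (97.0%). The leading genes of this cluster were Apol7c, H2-M2, Ccl22, Ccl5, Zmynd15, Cacnb3, Serpinb6b, Epsti1, Il4i1 and Tbc1d4, which include 3 of the 5 genes of the rule. The other 162 cells of that cluster were shallower, with a median of 1121 UMIs, and 105 of them had no Ccr7 UMI.

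The libraries held 25320800 to 37140950 UMIs in all, and 3717 to 5654 kept cells each. Members had a median of 8975 UMIs and 2113 genes, and their median mitochondrial share was 2.23%. Doublet scoring marked 7 of the 231 members (3.03%) against 3.71% of all kept cells. Of the kept barcode sequences, 174 occurred in more than 1 library (0.481%), including that of 1 member, and no barcode was a member in 2 libraries. Gm42418, an annotated gene that overlaps ribosomal RNA, took 101902 to 205804 CPM in the members of the 4 larger libraries, so CPM values of all other genes are scaled on a total that includes it.

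The members were spread unevenly over the libraries. There were 5 among 5144 kept cells in Ad-Lib 1, 38 among 4892 in Ad-Lib 3, 3 among 3798 in Ad-Lib 5 and 3 among 3717 in Ad-Lib 7. TAN 2 held 3 among 4318, TAN 4 held 36 among 4926, TAN 6 held 121 among 5654 and TAN 8 held 22 among 3921. TAN 6 alone gave 52.4% of all members, and 1 Ad-Lib library and 3 TAN libraries gave 217 of the 231. As shares of kept cells these were 0.0972% (exact 95% interval 0.0316 to 0.227%), 0.777% (0.55 to 1.06%), 0.079% (0.0163 to 0.231%) and 0.0807% (0.0166 to 0.236%) in Ad-Lib. In TAN they were 0.0695% (0.0143 to 0.203%), 0.731% (0.512 to 1.01%), 2.14% (1.78 to 2.55%) and 0.561% (0.352 to 0.848%). The intervals cover counting error only.

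**Figure D1:**
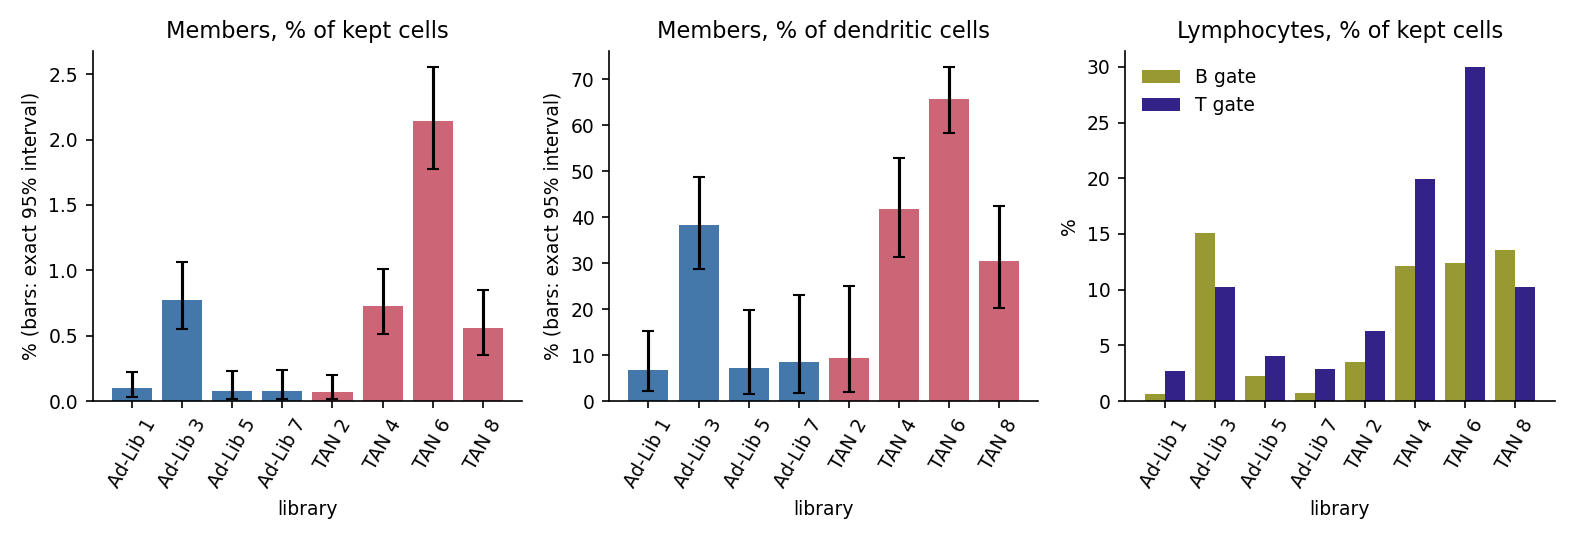
Members as a share of kept cells (left) and of dendritic cells (middle) in each library, with exact 95% Clopper-Pearson intervals, and B and T gate cells as a share of kept cells (right). TAN 6 has the highest share of members (2.14%) and of T gate cells (29.9%), and TAN 2 the lowest share of members (0.0695%) with 6.25% T gate cells.

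Whether the feeding schedule altered their number was asked over libraries. The share of kept cells was 0.258 ± 0.346% in Ad-Lib and 0.875 ± 0.889% in TAN (SD, n = 4 each). The groups overlapped and the difference of 0.617 percentage points was within the spread between libraries (exact two-sided permutation test, p = 0.371, 0.433 adjusted over 7 shares). Among all dendritic cells, counted as members plus Cd209a+ and Xcr1+ cells, members made up 15.3 ± 15.4% in Ad-Lib and 36.9 ± 23.5% in TAN (exact permutation test, p = 0.171, adjusted 0.4, n = 4 each). The smallest p that 4 libraries against 4 allow is 0.0286. Leaving out TAN 6 lowered the difference in kept cells to 0.195 percentage points, and leaving out Ad-Lib 3 raised that in dendritic cells to 29.3. With cells holding lymphocyte UMIs left out of the denominator the difference in kept cells was 1.26 percentage points (exact permutation p = 0.257, n = 4 each), and for the cluster that held most members it was 1.25 (p = 0.257, exact permutation).

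The shares of other immune cells are given beside the member number. Cd209a+ cells numbered 17 to 44 and Xcr1+ cells 10 to 42 in each of the 8 libraries. B gate cells made up 15.1%, 12.2%, 12.4% and 13.6% of Ad-Lib 3, TAN 4, TAN 6 and TAN 8, and 0.622%, 3.52%, 2.29% and 0.753% of Ad-Lib 1, TAN 2, Ad-Lib 5 and Ad-Lib 7. In the same orders, T gate cells made up 10.2%, 19.96%, 29.9% and 10.3%, and 2.72%, 6.25%, 4.05% and 2.85%. Between TAN and Ad-Lib neither share passed the threshold (exact permutation tests, p = 0.286 for B and 0.0571 for T gate cells, n = 4 each, adjusted 0.4 and 0.2). Macrophage gate cells made up 14.4 ± 2.80% in Ad-Lib and 8.29 ± 2.25% in TAN (exact permutation p = 0.0286, adjusted 0.2, n = 4 each). Because the libraries fall into separate sets on these measures, no correlation is given. The study's methods for SVF cells state that lymph nodes were left out, which the labels' protocol does not mention, and beyond the denominator above, the part of lymphocyte content in the member number was not tested.

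Against other dendritic cells, the members carried a distinct RNA profile, in which most tested NF-kB and MHC class I genes were higher and most MHC class II genes lower. Summed counts of each class in the 4 libraries with at least 10 members were compared in edgeR's quasi-likelihood test, with the library as a block. Calls needed an adjusted p (Benjamini-Hochberg) below 0.05 with a change of at least 1.5-fold, and gate genes were left out of the counts. Against Cd209a+ cells, 1045 of 4780 genes were called higher (21.9%) and 1140 lower (23.8%). Against Xcr1+ cells, 1224 of 4907 were called higher (24.9%) and 1152 lower (23.5%). The median log2 difference over all tested genes was -0.05 and 0.03. The classes were gated in the same cells, so the test speaks for the spread between libraries and not for the choice of the gates. With over 4 in 10 genes called in each comparison, a call is common, and the size and direction carry the description. The shares above are the background for every list count below.

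Ccl5, a chemokine for T cells and natural killer cells (chromosome 11, 83525778 to 83530518), had a UMI in 222 of 231 members (96.1%). It reached 16652 CPM in Ad-Lib 3, 30379 in TAN 4, 18425 in TAN 6 and 7736 in TAN 8. Cd209a+ cells of these libraries held 5.71 to 87.2 CPM and Xcr1+ cells 0 to 61.2 CPM, so no value overlapped. The log2 difference was 9.52 (SE 0.45, edgeR adjusted p = 1.19e-08) against Cd209a+ and 10.36 (SE 0.28, adjusted p = 1.4e-15) against Xcr1+ cells. Ccl5 UMIs in single members ranged from 0 in 9 cells to 2557 in a cell of TAN 4.

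Of the list of chemokines and cytokines, 7 of 12 tested genes were higher and 4 lower than in Cd209a+ cells, with a median log2 difference of 3.84. Against Xcr1+ cells 8 of 10 were higher and 2 lower, with a median of 4.03, or 3.61 with genes absent from Xcr1+ cells set to their lower bound. Cxcl16, a membrane-bound chemokine for Cxcr6+ T cells, stood at 719 ± 104 CPM against 46.5 ± 20 and 135 ± 52.8 CPM. The cytokine Il15, which sustains natural killer and memory T cells, stood at 112 ± 29.5 CPM, and its presenting receptor chain Il15ra at 116 ± 20.6 CPM. Both were at or under 9.32 CPM on average in the other classes. Ccl17, which shares the receptor of Ccl22, was found in 37.2% of members at 171 ± 135 CPM, and was higher than in both other classes. Il12b, the p40 subunit of interleukins 12 and 23, had a UMI in 42 members (18.2%). No Cd209a+ cell of the 4 libraries had one, a difference of at least 37.2-fold that could only be called higher. Xcr1+ cells held 29.3 CPM of Il12b in Ad-Lib 3, 0 in TAN 4, 25.3 in TAN 6 and 35.6 in TAN 8. Members held 215, 89.0, 50.5 and 15.8 CPM in that order, so in TAN 8 they were lower than Xcr1+ cells. Lower than in both classes were Il1b (119 ± 83.7 CPM against 1149 ± 184 and 331 ± 78.1) and the interferon-induced chemokine Cxcl9.

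**Figure D2:**
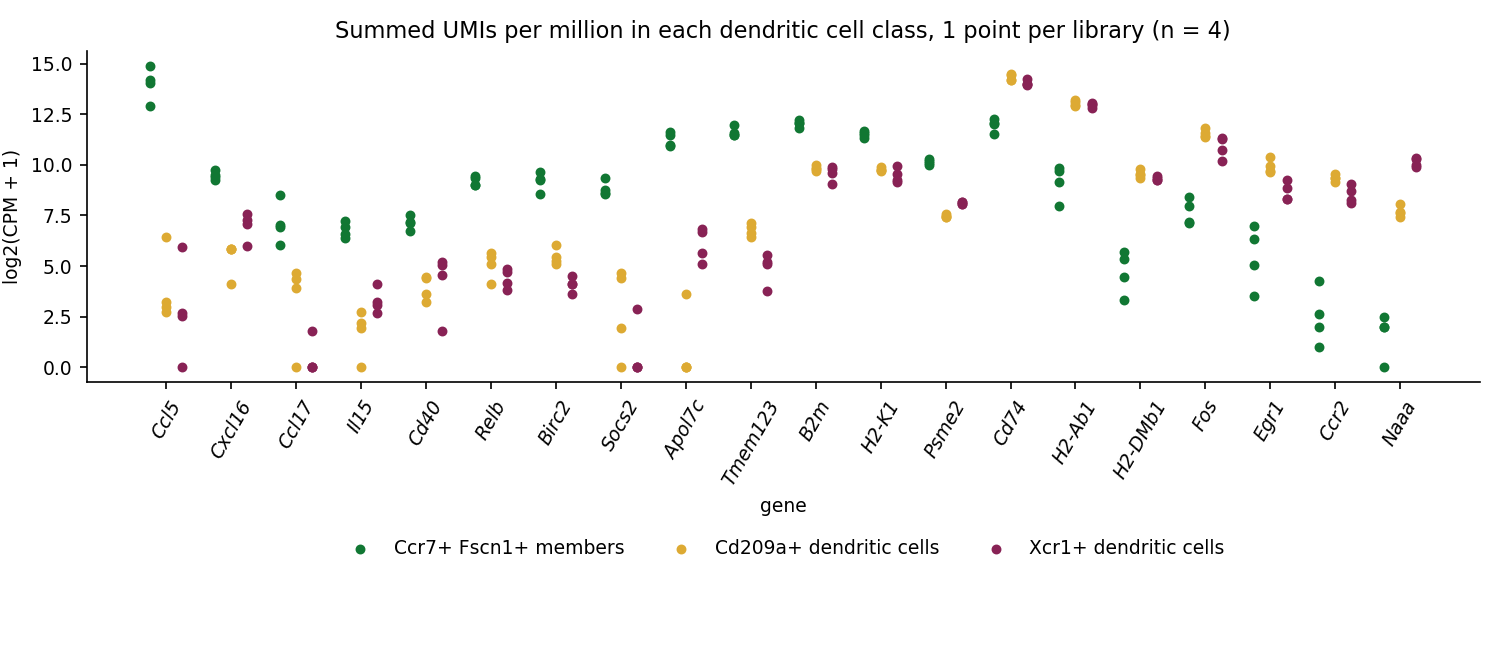
Levels of 20 genes as log2(CPM + 1) in members, Cd209a+ cells and Xcr1+ cells, with 1 point for each of the 4 libraries that hold at least 10 members. Ccl5 to Psme2 lie higher in members in every library, and Cd74 to Naaa lie lower.

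Among costimulation and activation receptors, 7 of 10 tested genes were higher and 2 lower than in Cd209a+ cells (median log2 difference 1.58), and 7 of 9 were higher and 2 lower than in Xcr1+ cells (median 2.73). Cd40, through which T cells license dendritic cells, stood at 142 ± 32.9 CPM against 15.1 ± 6.34 and 23.2 ± 15 CPM. Icosl, Icam1, Cd83 and the tumour necrosis factor receptor Tnfrsf1b were higher than in both. Tnfrsf9 was found in 29.4% of members and in neither other class, so a test could only call it higher. The same held for Slamf1 against Cd209a+ cells, which had no UMI of it. Cd80 had a UMI in 7.8% of members and could not be tested. Cd86 stood at 44.2 ± 30.2 CPM, which was not called against Cd209a+ cells (47.4 ± 16.7) and was lower than in Xcr1+ cells (138 ± 23.7).

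Among checkpoint and regulatory genes, 5 of 8 tested were higher and 2 lower than in Cd209a+ cells (21.9% and 23.8% of all genes). Against Xcr1+ cells 5 of 9 were higher and 2 lower (24.9% and 23.5% of all genes). The medians were 1.87 and 1.78. Cd274, which encodes PD-L1, stood at 74.6 ± 32.7 CPM against 14.7 ± 5.49 and 0.809 ± 1.62 CPM. Socs2, a suppressor of cytokine signalling, stood at 463 ± 122 CPM against means of 12 and 1.62 CPM. The death receptor Fas and the inhibitory ligand Cd200 were also higher than in both. Il10 had no UMI in any member, which allows a UMI in up to 1.3% of such cells at this depth, and Ido1 had one in 0.866%.

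NF-kB genes, which act downstream of receptors such as Cd40 and Tnfrsf1b, were higher in most cases. Of 18 tested, 12 were higher and 1 lower than in Cd209a+ cells (median 0.97), and 16 were higher and 0 lower than in Xcr1+ cells (median 2.02, 24.9% of all genes higher). Relb, the DNA-binding subunit of the non-canonical arm, stood at 602 ± 96.5 CPM against 35.2 ± 13.8 and 20.8 ± 6.94 CPM, log2 differences of 4.26 (SE 0.24, edgeR adjusted p = 5.27e-08) and 4.93 (SE 0.23, adjusted p = 2.15e-12). Nfkb2, its partner, and the apoptosis inhibitors Birc2 and Birc3 were higher than in both, and Birc2 reached 608 ± 174 CPM against 44.6 ± 14.4 and 16.4 ± 4.44 CPM. Map3k14, the kinase of this arm, was also higher than in both, by 0.99 and 1.95 on the log2 scale, while the kinase Chuk was called in neither comparison. Nfkb1, a subunit of the canonical arm, was lower than in Cd209a+ cells (81.9 ± 4.66 against 190 ± 11.5 CPM).

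**Figure D3:**
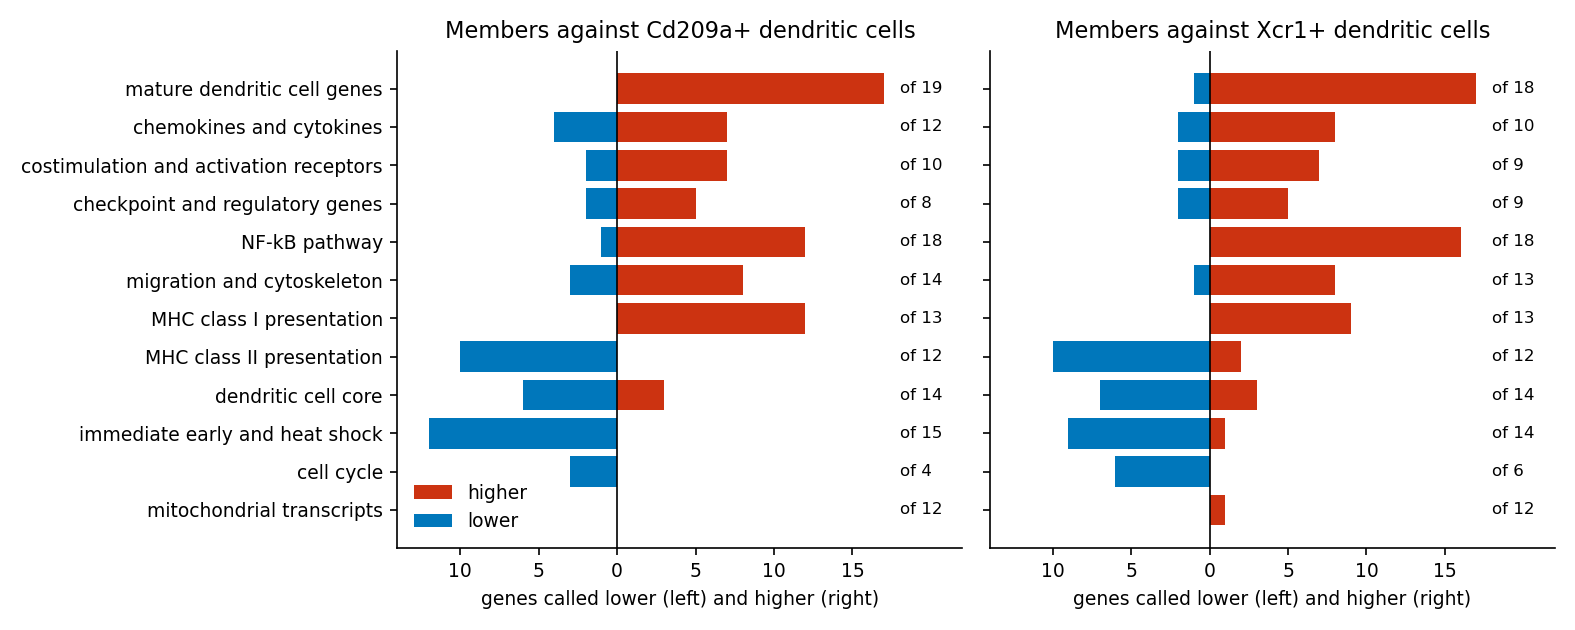
Number of genes of each list called higher (right of zero) or lower (left of zero) in members than in Cd209a+ cells and Xcr1+ cells, with the number tested beside each bar. MHC class I genes are called higher only (12 and 9 of 13), and MHC class II genes are mostly lower (10 of 12 in both).

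Genes known from mature dendritic cells were higher in 17 of 19 tested cases against Cd209a+ cells (21.9% of all genes). Against Xcr1+ cells they were higher in 17 of 18 (24.9% of all genes), with medians of 5.09 and 5.11. These genes are known to accompany the genes of the rule. Tmem123 stood at 3180 ± 551 CPM against 112 ± 23.2 and 32 ± 14.1, Apol7c at 2492 ± 586 against 2.81 ± 5.62 and 74.1 ± 39, and Epsti1 at 3981 ± 1510 against 84.4 ± 27.3 and 128 ± 16.8 CPM. The non-classical MHC gene H2-M2 stood at 1146 ± 207 CPM and the tetraspanin Cd63 at 708 ± 76.2 CPM, both under 40 CPM on average in the other classes. Cst3, a protease inhibitor typical of dendritic cells, stood at 4068 ± 1017 CPM and was 4.75-fold higher in Xcr1+ cells. Ankrd33b, Nudt17, Slco5a1, Insm1 and Mreg had no UMI in either other class of these 4 libraries. Against Xcr1+ cells this gives at least 174-fold for Ankrd33b, 143-fold for Nudt17, 104-fold for Slco5a1, 80.7-fold for the transcription factor Insm1 and 72.1-fold for Mreg. Such genes passed the filter only through members and could only be called higher. To that extent the list counts are no support for a direction.

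Genes of migration and the cytoskeleton were called higher in 8 of 14 tested cases and lower in 3 against Cd209a+ cells, and higher in 8 of 13 and lower in 1 against Xcr1+ cells (medians 1.69 and 1.89). Marcks, which ties actin to the membrane, stood at 2051 ± 474 CPM against 496 ± 135 and 469 ± 98.3 CPM. Rgs1, which damps chemokine receptor signalling, stood at 752 ± 176 CPM against 106 ± 44.6 and 82.2 ± 39.4. Coro1a, an actin regulator of leukocytes, was lower (118 ± 42 against 830 ± 32.9 and 738 ± 65.8 CPM). Actb and Actg1 were not called in either comparison.

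Antigen presentation genes went in opposite directions by class. Of the MHC class I list, 12 of 13 tested genes were higher and 0 lower than in Cd209a+ cells (median 1.46), and 9 of 13 were higher and 0 lower than in Xcr1+ cells (median 1.07). B2m, the light chain of class I, stood at 3625 CPM in Ad-Lib 3, 4285 in TAN 4, 4348 in TAN 6 and 4831 in TAN 8. The other classes held 528 to 1027 CPM, below every member value. H2-K1 stood at 2927 ± 314 CPM against 877 ± 50.4 and 725 ± 191, and the proteasome activator Psme2 at 1123 ± 97 against an average of 177 and 275 CPM. Nlrc5, the transactivator of class I genes, stood at 99.8 ± 13.4 CPM against 12.7 ± 13.7 and 16.7 ± 4.06. The peptide transporter genes Tap1 and Tap2 were higher than in Cd209a+ cells but were not called against Xcr1+ cells.

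Of the MHC class II list, 10 of 12 tested genes were lower and 0 higher than in Cd209a+ cells (median -2.11). Against Xcr1+ cells 10 were lower and 2, Ctss and Ifi30, higher (median -2.01). H2-Ab1, a class II chain, was 906 CPM in Ad-Lib 3, 249 in TAN 4, 567 in TAN 6 and 837 in TAN 8. Cd209a+ cells held 7738 to 9428 and Xcr1+ cells 7091 to 8446 CPM in the same libraries, without overlap. The log2 difference was -3.64 (SE 0.20, edgeR adjusted p = 3.47e-08) and -3.62 (SE 0.22, adjusted p = 7.44e-11). With all 8 libraries, it was -2.90 and -2.79. Cd74, the invariant chain, stood at 4071 ± 800 CPM against 20517 ± 2143 and 16918 ± 1625. Ciita, which drives class II transcription, stood at 31.7 ± 26.1 CPM against 169 ± 41.3 and 220 ± 74.2 CPM. H2-DMb1, which helps to load peptides, was 25.4-fold and 21.4-fold higher in the other classes. RNA of H2-Ab1 had a UMI in 53.2% of members and that of Cd74 in 95.2%.

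Of the dendritic cell core list, 3 of 14 genes were higher and 6 lower than in Cd209a+ cells (21.9% and 23.8% of all genes). Against Xcr1+ cells 3 were higher and 7 lower (24.9% and 23.5% of all genes). The higher counts were near those shares. Flt3, the growth factor receptor of the lineage, the transcription factor Zbtb46 and Cbfa2t3 were called in neither comparison, with Flt3 at 156 ± 47.1 CPM against 129 ± 34.3 and 149 ± 62.5. Ccr2, which draws cells from blood into tissue, was 96-fold higher in Cd209a+ and 55.8-fold higher in Xcr1+ cells. Id2 and Batf3, transcription factors used by cDC1, were higher than in Cd209a+ cells (Id2 926 ± 176 against 43.1 ± 33.9 CPM), and Id2 was not called against Xcr1+ cells (728 ± 90.8). Irf8, the other cDC1 factor, was lower than in Xcr1+ cells (236 ± 34.4 against 1706 ± 385 CPM). Irf4, the factor of cDC2, was lower than in Cd209a+ and higher than in Xcr1+ cells.

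Of the Xcr1+ list, 9 of 9 tested genes were lower than in Xcr1+ cells, and of the Cd209a+ list 8 of 8 were lower than in Cd209a+ cells (medians -5.97 and -5.29, the latter -5.12 with genes absent from members at their bound). These lists mark the classes that were gated for comparison, and genes near 0 in members pass the filter only through those classes, so the direction was fixed by the choice. Naaa, a lysosomal enzyme typical of cDC1, was 427-fold higher in Xcr1+ cells, and the lectin Clec10a was 133-fold higher in Cd209a+ cells. Only 10 members had a UMI of Xcr1 or Clec9a (4.33%, exact 95% interval 2.1 to 7.82%) and 6 one of Cd209a or Mgl2 (2.6%). Irf8 was found in 130 members (56.3%), Irf4 in 39 (16.9%) and both in 21 (9.09%). Among the 42 members with Il12b, 31 had Irf8 (73.8%, 58 to 86.1%), and among the 189 without it 99 did (52.4%, 45 to 59.7%), as shares not corrected for depth. The Langerhans cell list, named for the dendritic cells of epidermis, had 1 of 3 tested genes higher (Mfge8) and 1 lower (Cldn1) than in Xcr1+ cells. Cd207 had a UMI in 25 (10.8%) and Epcam in 33 (14.3%), and 9 members had both. Cd207 was not called against Xcr1+ cells, which held 4.89 to 123 CPM. The Cd209a+ cells used for comparison also held RNA of plasmacytoid cells, with Siglech at 177 ± 48.4 and Ly6d at 341 ± 253 CPM. Their sum of the macrophage and monocyte list was 2093 to 3241 CPM, against 852 to 1616 in Xcr1+ cells and 53.4 to 826 in members. How far this bears on genes called lower in members was not tested.

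Immediate early genes were mostly lower in members than in the other classes. Of the immediate early and heat shock list, 12 of 15 tested genes were lower and 0 higher than in Cd209a+ cells (median -2.38), and 9 of 14 were lower and 1, Zfp36, higher than in Xcr1+ cells (median -1.32). Summed over the list, members still held 3869 to 5436 CPM. Fos stood at 217 ± 95.1 CPM against 3023 ± 401 and 1979 ± 660, and Egr1 at 61.5 ± 50.4 against 990 ± 253 and 425 ± 143 CPM. Such genes are also known to respond to tissue digestion. Of the 10 cell cycle genes, 4 could be tested against Cd209a+ cells, of which 3 were lower, and 6 against Xcr1+ cells, all lower. Pclaf, and Birc5 against Xcr1+ cells, passed the filter only through the other class and could only be called lower, so the counts are no support for a direction. Summed over the list, members of the 4 libraries held at most 44.5 CPM, while Cd209a+ cells ranged from 20 to 764 CPM and overlapped with them. Stmn1 stood at 3.7 ± 3.23 CPM against 127 ± 130 and 195 ± 195. Pclaf, Birc5, Ccnb1, Ccnb2 and Ube2c had no UMI in the 231 members, and Mki67 or Top2a had one in 21 (9.09%).

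Genes of T cells that are also used by dendritic cells were present. Il7r, the receptor of interleukin 7, had a UMI in 48.1% of members at 126 ± 42.6 CPM, and the transcription factor Tcf7 in 26.0% at 58.1 ± 30 CPM. Both were higher than in the other classes. The defining T cell genes Trac, Trbc1 and Lck averaged under 3 CPM and each had a UMI in at most 3.03% of members. Trbc2 had one in 15 members (6.49%) and stood at 2.28 CPM in Ad-Lib 3, 2.97 in TAN 4, 18.2 in TAN 6 and 0 in TAN 8. The B cell genes Pax5 and Fcmr had no UMI, and Ighm had one in 23.4% of members. Summed over the whole list, B cell genes held 38.5 to 68.7 CPM and T cell genes 148 to 295 CPM over the 4 libraries. The rule left out cells with a UMI of Cd3d, Cd3e, Cd3g or Cd79a, so low T and B cell RNA was favoured by the choice.

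Of the cholesterol and lipid handling list, 2 of 13 tested genes were higher and 3 lower than in Cd209a+ cells (21.9% and 23.8% of all genes), and 6 of 10 were higher and 1 lower than in Xcr1+ cells (24.9% and 23.5% of all genes). The fatty acid binding protein Fabp5 stood at 1344 ± 672 CPM against 175 ± 108 and 16.2 ± 11.6, and the cholesterol exporter Abcg1 at 343 ± 76.3 against 66.6 ± 22.3 and 59.2 ± 19.9 CPM. Of the insulin, leptin and feeding-signal receptors, 1 of 6 was higher and 3 lower than in Cd209a+ cells, and 1 of 7 was higher and 3 lower than in Xcr1+ cells. Of the glucocorticoid-responsive list, 0 of 9 were higher and 4 lower than in Cd209a+ cells (median -0.76). Against Xcr1+ cells 3 of 8 were higher and 2 lower (median 0.15). For this list and the receptor list, the shares over all genes are those given above. Insr, the insulin receptor, had a UMI in 16.5% of members and the leptin receptor Lepr in 0.433%. Glp1r had no UMI in any member. Of 16 clock genes, 14 were detected but only 2 could be tested against each class. Mitochondrial transcripts were called in 0 of 12 cases against Cd209a+ cells (edgeR) and in 1 of 12 against Xcr1+ cells.

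The same genes were read in the members of all 8 libraries, 4 of which rest on 3 to 5 cells. In the order Ad-Lib 1, 3, 5 and 7, Ccl5 stood at 6259, 16652, 1133 and 6122 CPM, and in the order TAN 2, 4, 6 and 8 at 4310, 30379, 18425 and 7736 CPM. Cd74 stood at 9793, 4864, 12439 and 10447 CPM in Ad-Lib and at 17361, 2968, 4341 and 4110 CPM in TAN. H2-Ab1 stood at 2783, 906, 3551 and 640 CPM in Ad-Lib and at 4011, 249, 567 and 837 CPM in TAN. Both groups overlapped in all 3 genes. The summed MHC class II list stood at 20999, 11199, 32350 and 20620 CPM in Ad-Lib and at 31968, 7001, 10038 and 10436 CPM in TAN, each below the lowest sum of Cd209a+ and Xcr1+ cells in the 4 tested libraries (36787).

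**Figure D4:**
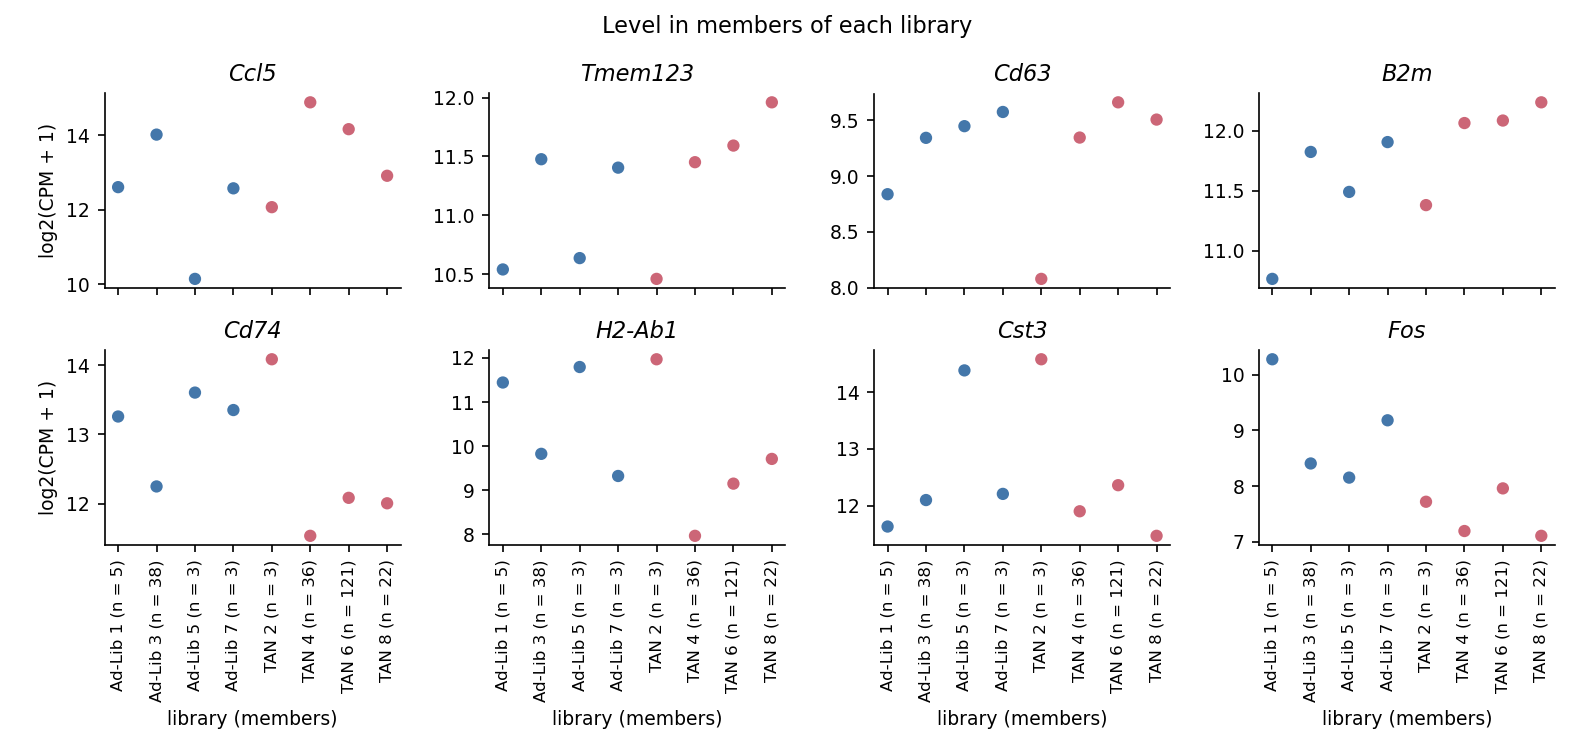
Levels of 8 genes as log2(CPM + 1) in the members of each Ad-Lib library (blue) and TAN library (red), with the number of members in brackets. Ccl5 ranges from 1133 CPM in Ad-Lib 5 to 30379 in TAN 4, and Cd74 from 2968 in TAN 4 to 17361 CPM in TAN 2.

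Much of the RNA of some other cell types lay in single members. One of the 38 members of Ad-Lib 3 held 424 of the 442 UMIs of Dcn, Col1a1, Col1a2 and Col3a1, genes of fibroblasts and adipocyte progenitors. Another held 122 of the 129 UMIs of the macrophage complement genes C1qa, C1qb and C1qc, and 207 of the 212 of Lyz2. In TAN 6, 1 of 121 members held 4242 of 4313 haemoglobin UMIs, and 1 of the 3 members of Ad-Lib 7 held all 3343. Fabp4 and Cd36 UMIs were spread more widely, over 101 of the 231 members, with 345 of 1134 in 1 cell. In all, 9 members held at least 100 UMIs of one such group (fibroblast, C1q, haemoglobin, or Fabp4 and Cd36), and 3 of them had been marked as doublets. The limit of 100 UMIs was chosen after the values were seen.

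Whether TAN feeding changed the members' RNA was tested mainly with Ad-Lib 3 against TAN 4, 6 and 8, since the other Ad-Lib libraries held 3 to 5 members. This test compares 1 Ad-Lib library with 3 TAN libraries, and its p-values rest on the spread among TAN libraries, which Ad-Lib libraries are assumed to share. Its filter also lets in genes counted in Ad-Lib 3 alone, which could only be called lower in TAN. With all members, 34 of 4785 genes were called lower in TAN (0.711%) and 3 higher (0.0627%). Dcn stood at 470 CPM in Ad-Lib 3 against 11.9, 27.3 and 26.3 CPM, Col1a2 at 224 against 0, 4.04 and 0, C1qb at 169 against 11.9, 3.03 and 0, and Lyz2 at 484 against 20.8, 45.5 and 0 CPM in TAN 4, 6 and 8. Of the adipocyte progenitor list 4 of 7 tested genes were lower, and of the macrophage and monocyte list 4 of 4. Summed over all 13 genes, the macrophage and monocyte list ranged from 53.4 to 826 CPM over the 4 libraries, and the 8 progenitor genes from 94.9 to 1196 CPM. The 3 called higher were Fabp4, Cd36 and 2610528A11Rik, and DESeq2 called 0 genes higher and 12 lower, with 81 at an unadjusted p below 0.05 in either direction. Though not called by DESeq2, Fabp4 and Cd36 had log2 differences of 2.87 and 4.53 there, against 2.89 and 4.39 in edgeR. In edgeR, Cd36 also lost its call without doublets and where a member needed at least 5 UMIs of the other rule genes. Its log2 difference there was 3.80 and 3.92, against 4.39 in the main setting.

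Without the 9 members, which were chosen after the values were seen, 9 of 4263 genes were called, all lower in TAN, and 5 of them had been called with all members. The 5 were Fgl2, Il12b, Klf2, Cd86 and Wfdc17. With all members, DESeq2 called Fgl2 and Klf2 but not Il12b, Cd86 or Wfdc17. For Il12b, Cd86 and Wfdc17 its log2 differences were -2.12, -1.76 and -2.10, against -2.09, -1.71 and -2.01 in edgeR. In edgeR, Cd86 lost its call without TAN 6, at a log2 difference of -1.85 (adjusted p = 0.0533) against -1.71 with all 4 libraries. Il12b lost it in thinned members, at -2.76 (adjusted p = 0.17) against -2.09 in all members without thinning. Fgl2, a fibrinogen-like protein with immunosuppressive activity, stood at 375 CPM in Ad-Lib 3 against 61.3, 44.1 and 126 in TAN 4, 6 and 8, a log2 difference of -2.68 (SE 0.32, edgeR adjusted p = 9.25e-08). Il12b stood at 243 against 85.9, 51.5 and 15.8 CPM (-2.30, SE 0.36, adjusted p = 6.81e-05), and 57 of its 94 UMIs in Ad-Lib 3 came from 1 cell. Klf2, a transcription factor of quiescence, stood at 89.7 against 27.6, 23.1 and 15.8 CPM. Cd86, a costimulatory ligand, stood at 100 against 24.5, 33.6 and 31.6 CPM. The other 4 were Serpinb1a, Calm4, Tnip3 and Gm42418. Dcn, Col1a2, C1qb and Lyz2 were then no longer called. Nor were Fabp4 and Cd36, at log2 differences of 1.27 and 3.06, against 2.89 and 4.39 with all members. Some of the 9 had been chosen for their Fabp4 and Cd36 UMIs.

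**Figure D5:**
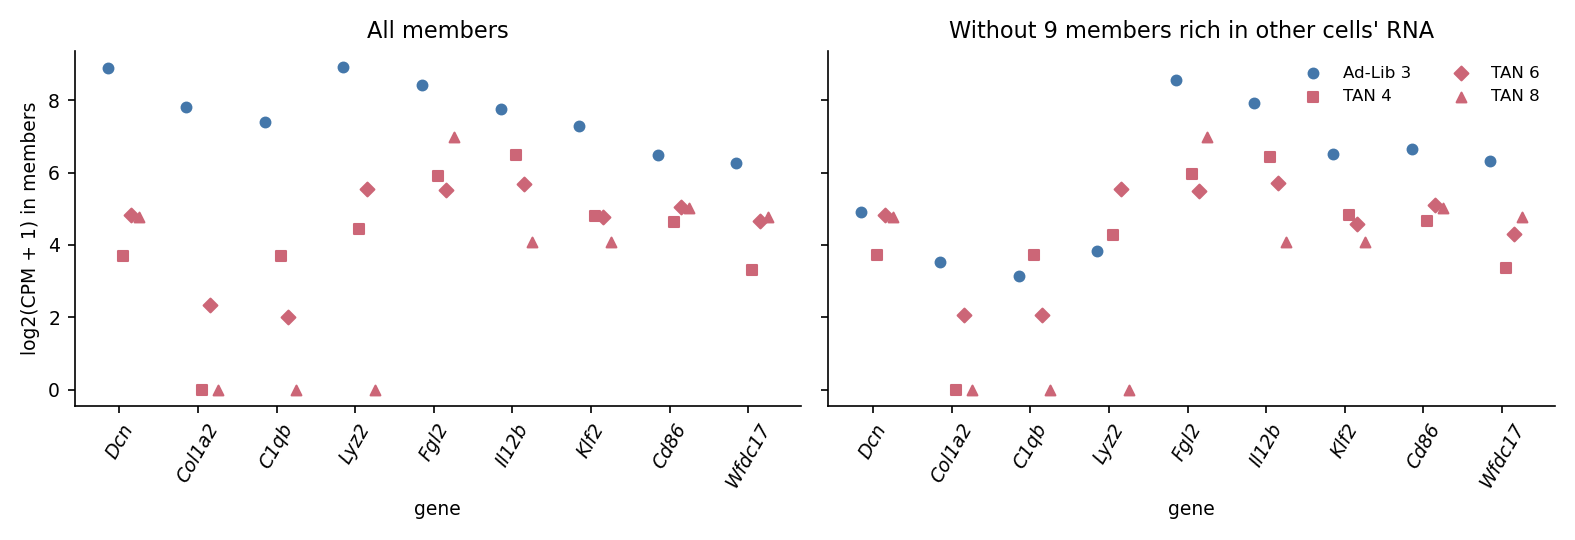
Levels of 9 genes as log2(CPM + 1) in the members of Ad-Lib 3 and of TAN 4, 6 and 8, with all members (left) and without the 9 members rich in other cells' RNA (right). Dcn, Col1a2, C1qb and Lyz2 of Ad-Lib 3 fall, as the removed cells were chosen for such genes, with Col1a2 still at 10.6 CPM against 0 to 3.15 in TAN, while Fgl2, Il12b, Klf2, Cd86 and Wfdc17 stay above it.

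With every library that held at least 1 member, edgeR called 0 of 1277 genes, and 55 had an unadjusted p below 0.05. Of the 5 genes above, only Il12b was among the 1277, since Fgl2, Klf2, Cd86 and Wfdc17 did not pass the filter there. The Il12b values of the sparse libraries were 0 in Ad-Lib 1, 59.9 in TAN 2, 784 in Ad-Lib 5 and 213 CPM in Ad-Lib 7, and the log2 difference was -2.41 (edgeR adjusted p = 0.581). Fgl2 stood at 58.9 in Ad-Lib 1, 0 in TAN 2, 87.1 in Ad-Lib 5 and 0 CPM in Ad-Lib 7, all within the range of the TAN libraries. Klf2 stood at 309, 389, 65.4 and 30.5 CPM in the same order. Cd86 stood at 0 in Ad-Lib 1, 210 in TAN 2, 21.8 in Ad-Lib 5 and 91.4 CPM in Ad-Lib 7. Thinning members to 2000 UMIs dropped those with fewer and left 1115 genes to test, against 4785 without thinning. Genes outside the 1115 could not be called there. Ccl5, Relb and Cd74 were not called between Ad-Lib 3 and the TAN libraries. Ccl5 had a log2 difference of 0.08 (SE 0.38, edgeR adjusted p = 0.998). Without TAN 8 it was 0.48 (adjusted p = 6.09e-05), under the 1.5-fold limit of a call, and without TAN 4 it was -0.54 (adjusted p = 0.116). Relb had one of 0.10 (SE 0.28) and Cd74 one of -0.52 (SE 0.21, adjusted p = 0.626). Of the lists of mature dendritic cell genes, NF-kB genes and MHC class I and II genes, 0 of 20, 18, 13 and 11 tested genes were called, with medians of 0.02, -0.07, 0.11 and -0.54 against 0.02 for all genes.

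The TAN difference in members was compared with that in Cd209a+ cells of the same 4 libraries by an interaction term in edgeR. Of 5759 genes, 5 had a positive interaction, meaning a TAN minus Ad-Lib difference that was higher in members (0.0868%), and 14 a negative one (0.243%). Haemoglobin genes, Dcn and Lyz2 were among them, whose UMIs lay mostly in single members as given above. Without the 9 members 10 genes were called. Klf2 had an interaction of -2.76, with 155 CPM in members of Ad-Lib 3 against 26.7, 26.3 and 15.8 in TAN, and 633 CPM in Cd209a+ cells of Ad-Lib 3 against 824, 789 and 462. Ccl5 had one of 3.81, and here the members were not called between groups, whereas Cd209a+ cells held 87.2 CPM in Ad-Lib 3 and 5.71 to 8.26 CPM in TAN.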

How the data were processed

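SVF cells of inguinal fat were profiled on the 10x platform. The authors deposited UMI counts that were not normalized, as 1 matrix for each library. The submitters' processing notes name Cell Ranger 3.0.2, the file headers 6.0.1, on mm10 (GRCm38). Limits on barcodes were 700 to 30000 UMIs, 200 to 8000 genes and at most 10% mitochondrial UMIs. Doublets were scored but kept. The fraction of cells is reported with exact Clopper-Pearson intervals. Comparison gates were at least 2 Cd209a UMIs with at most 2 C1q UMIs, at least 2 Xcr1 or Clec9a UMIs (both without the exclusion genes), and UMIs of B, T and macrophage genes. Cells in both dendritic cell gates (16) were dropped.

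For each class, the UMIs of a library were added up and tested with edgeR 4.0.16 (quasi-likelihood, TMM, filterByExpr) in libraries with at least 10 members. In the TAN test the filter admits genes counted in 1 library. Shares were compared by exact permutation over libraries. DESeq2 1.42.0, thinning, other gate limits, doublet removal, other filters and leaving out libraries were alternatives. The script was tested on simulated data. Genes named are those of the rule, up to 20 called between TAN and Ad-Lib by adjusted p, called and abundant list members, and the 10 largest differences each way from the other dendritic cells at 100 CPM or more. Others (Calm4, genes tied to single cells) were chosen after their values were seen. The members and gene lists were chosen with earlier results of these data known. The study speaks of animal replicates, but the labels do not say how many mice gave a library. If they are not separate animals, p-values measure only the spread between libraries, which may be technical. Coordinates are from GENCODE M21, which matched 32158 of 32285 identifiers.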

Additional observations from a re-analysis of the deposited data

Results flagged for a closer look

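In Ad-Lib 3 the members made up 0.777% of kept cells and 38.4% of dendritic cells, far above the other 3 Ad-Lib libraries. B gate cells stood apart in the same way, at 15.1% of Ad-Lib 3 and, on the low side, 3.52% of TAN 2. Chance sets 1 in 20 groups of 4 apart in this way. Beyond a change of denominator, the part of lymphocyte content in the number of members was not tested.

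The TAN difference (log2) in members minus that in Cd209a+ cells passed the test in 19 genes, with 1 Ad-Lib library behind it. It was 8.48 for Hba-a2, 7.28 for Hba-a1 and 6.00 for Hbb-bs, with 4242 of 4313 haemoglobin UMIs of TAN 6 in 1 cell. It was -8.37 for Fn1, -10.30 for Plpp3, -4.36 for Dcn, -4.06 for Sparc, -3.73 for Timp2, -3.71 for Ly6a, -2.30 for Gsn and -5.49 for Emp1, genes of stromal cells among others. For Lyz2 it was -3.50 and for Retnla -3.52. It was 3.81 for Ccl5 and 3.00 for H2-M2, with Ccl5 at 87.2 CPM and H2-M2 at 101 CPM in Cd209a+ cells of Ad-Lib 3. It was -2.76 for Klf2, -2.44 for Klf4, -2.26 for Fgl2 and -2.17 for Tnip3.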

How the results depend on the processing

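No paired analysis was possible because the groups share no replicate numbers. The TAN minus Ad-Lib differences in both member shares kept their direction in all 16 and 14 alternatives, and none passed the threshold. Settings that left out 1 library could not pass it, since 3 libraries against 4 allow no exact p below 0.0571. The dendritic cell share without Ad-Lib 3 stood at this limit (exact permutation test, p = 0.0571). Leaving out single libraries gave 0.195 to 0.886 percentage points for kept cells and 12 to 30.8 for dendritic cells. Other denominators or clusters gave up to 1.26 points for kept cells. Calls against Cd209a+ cells ranged from 1810 to 1969 and against Xcr1+ cells from 1901 to 2184 when single libraries were left out, and no alternative moved either count by over 1.5 times. The TAN calls were 37, and 12 by DESeq2, 88 without a filter, 13 without doublets, 3 with thinned members, 41 to 79 with single TAN libraries left out (79 without TAN 8), and, chosen after seeing the data, 0 with all libraries and 9 without the members rich in other cells' RNA. With all libraries and each left out in turn, 0 to 2 genes were called. The interaction calls were 19, and 2 by DESeq2, 45 without a filter, 7 without doublets, 34 to 59 with single TAN libraries left out (34 without TAN 4, 35 without TAN 6, 59 without TAN 8), 7 with all libraries and 10 without those members. Without Ad-Lib 3 neither comparison could be fitted in the libraries with at least 10 members. Ccl5 between TAN and Ad-Lib ranged from -0.54 to 0.48 with single TAN libraries left out, changing sign without TAN 4 (-0.54), in thinned members (-0.17) and without the members rich in other cells' RNA (-0.076). The cause was not tested. With 3 to 5 members in 4 libraries, their levels rest on few cells.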

Other observations

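Of 8057 barcodes outside the limits on depth, genes and mitochondrial share, 6 met the member rule, 5 of them in TAN 6 and 1 in Ad-Lib 5. Of these, 3 exceeded the mitochondrial limit and 3 had too few UMIs.

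Calm4, a calmodulin-like gene, was read mostly in a few members. It had 105 UMIs in 10 of 38 members of Ad-Lib 3, 14 in 5 of 36 of TAN 4, 43 in 13 of 121 of TAN 6, and 50 in 3 of 22 of TAN 8, where 1 cell held 32. Ccl17 was similar, with 48 of the 70 UMIs of TAN 8 in 1 cell and 33 of 33 in 1 of the 3 members of Ad-Lib 5.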
